A study of Homo sapiens with 50 samples.

Results

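In a growth screen in human fibroblasts, 52 hairpins that were abundant at the start were almost gone at the next sampling. They were selected on their counts at population doublings 40 and 45 (PD40 and PD45): at least 1000 sequence tags at PD40 and an abundance at least 16-fold lower at PD45. Abundance is given as CPM, the tags of a hairpin over the tags of its column times 1000000. The rule found 52 hairpins among 1740 with at least 1000 tags at PD40, which is 2.99%, and among 3443 hairpins in all. Of the 52, 51 named 1 gene each and 1 named a pair of histone genes. The 51 fell on 46 genes: 5 genes had 2 such hairpins, 41 had 1, and 0 had 3 or more. A pair was possible for 446 genes, those with at least 2 hairpins of 1000 tags or more at PD40. Among the genes with 2 were EZH2, SNAI1, CHD2 and REL. EZH2 and REL had 7 hairpins of 1000 tags or more each, CHD2 had 5 and SNAI1 had 3. As the rule used PD40 and PD45, values in these columns are a description of the chosen hairpins and carry no test.

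A short hairpin RNA (shRNA) is processed in the cell into a small RNA that guides the silencing machinery to matching messenger RNA, and several hairpins per gene are used because they differ in potency and can silence unintended messages. In a pooled screen each infected cell carries its hairpin in its own DNA, so the share of tags follows the share of cells that descend from the cells first infected. A hairpin can leave the pool because its cells divide less or die, and also because few cells carried it and none of them was passed on. For this reason screens of this kind look for genes with several hairpins that leave together, and hairpins to 1 gene often disagree.

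IMR90 cells, normal diploid lung fibroblasts that stop dividing after a limited number of doublings, were grown at 3% oxygen and infected at a multiplicity of infection of 0.3 with lentiviruses carrying hairpins mainly against regulators of chromatin. Each of the 5 groups is 1 population doubling (40, 45, 50, 55 or 60) with 10 plates, each plate infected with a different combination of the 5 initial virus pools; cells at PD40 served as the proliferating control and those at PD60 were senescent. The labels give the groups the same cells and treatment and differ in population doubling. With 1 pooled column per time, library preparation, sequencing and pooling cannot be told apart from time in culture. The deposited table had 1 pooled column per population doubling, with 8270745 to 11505688 tags, and therefore no replicates: the intervals given are 95% counting intervals and do not measure the spread between plates. The tags were amplified by PCR, so these intervals cover counting error only. A hairpin with few cells on few plates cannot be told apart here from one lost evenly on all plates.

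The 52 hairpins started at 1000 to 5733 tags at PD40, with a median of 1355, and had 6 to 339 at PD45, with a median of 61.5. They ranked from 306 to 1740 in PD40 abundance, so the most abundant hairpins of the library were not among them. Their fold loss ran from 16.1 to 205, with a median of 23.8. Together they held 1.01% of all tags at PD40 and 0.0428% at PD45. For 36 of them the whole counting interval lay beyond the 16-fold limit. The other 1688 abundant hairpins had a median PD45 to PD40 ratio of 0.567, so the typical abundant hairpin also declined relative to the column total. All directions here are relative to that total. With TMM scaling, which centres on the bulk of hairpins, the median log2 ratio of the 1740 was 0.28 in place of -0.87, and 8 of the 52 hairpins still met the 16-fold limit, no 2 of them against 1 gene. Of the 1740, 817 were over 2-fold lower, 182 at least 8-fold lower and 11 at least 32-fold lower, and 154 were over 2-fold higher. For comparison, the hairpin with no target had 4562 tags at PD40 and 1775 at PD45, a ratio of 0.382. Over the whole library, hairpins under 1000 tags included, the median ratio was 0.312. Most hairpins were thus over 2-fold lower, and a gene's count of such hairpins is to be read against that.

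Just inside the ratio limit were hairpins against DICER1 (2087 to 132 tags, ratio 0.0621), FOXA1 (1481 to 90, ratio 0.0597) and ATRX (1214 to 73, ratio 0.0591). Just outside it were hairpins against PIK3CB (2322 to 148, ratio 0.0626), NR0B2 (1307 to 84, ratio 0.0631) and ING3 (5294 to 341, ratio 0.0633). The counting interval of the DICER1 hairpin, 13.5-fold to 19.3-fold, includes the limit. On the tag limit, hairpins against SMC1A (1000 tags) and HIST1H1E (1017) were just inside. Hairpins against SMAD4 (948 tags), PIK3R3 (943) and HIST1H1T (941), which also met the fold limit, were just outside. Below 1000 tags the fold limit was met far more often, by 494 of 1703 hairpins (29.0%).

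The 8 hairpins against EZH2 ranged from a 70.8-fold loss to a 1.09-fold one. EZH2 is the catalytic subunit of Polycomb repressive complex 2 (PRC2), which methylates lysine 27 of histone H3 and is known to keep the CDKN2A locus silent in young fibroblasts. TRCN0000010475 had 1252, 18, 6, 0 and 0 tags in the columns from PD40 to PD60, in order of time, a 70.8-fold loss by PD45 (44.6 to 120). TRCN0000018365 had 2648, 77, 10, 8 and 6 tags, a 35.0-fold loss (27.9 to 44.5). These 2 hairpins were among the 11 with at least 32-fold loss, and EZH2 was the sole gene with 2 hairpins in that class. TRCN0000040077, with 548 tags at PD40, was at 8 by PD45 (69.7-fold). The next 4 hairpins declined by graded amounts: TRCN0000040076 by 13.3-fold, TRCN0000040075 by 5.16-fold, TRCN0000010474 by 3.42-fold and TRCN0000040074 by 2.27-fold. The last, TRCN0000040073, behaved otherwise, with 5260, 4909, 10920, 14310 and 4037 tags. In all, 7 of 8 EZH2 hairpins were over 2-fold lower at PD45, yet the summed EZH2 share was 0.0876% at PD45 and 0.137% at PD50, most of it from that 1 hairpin.

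Both SNAI1 members had nearly equal counts throughout. SNAI1 encodes Snail, a zinc finger repressor of E-cadherin known for the epithelial to mesenchymal transition. TRCN0000063820 had 1633, 58, 7, 11 and 0 tags, a 28.7-fold loss (22.1 to 37.9), and TRCN0000063822 had 1620, 66, 5, 9 and 1, a 24.99-fold loss (19.5 to 32.5). Their intervals overlap. The third abundant hairpin, TRCN0000063819, went from 2972 to 666 tags (4.54-fold). TRCN0000063821 went from 502 to 35 (14.6-fold) and TRCN0000063818 from 218 to 36 (6.17-fold). All 5 SNAI1 hairpins were over 2-fold lower, as were most hairpins of the library. Their summed share went from 0.0805% to 0.00980%.

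CHD2 and REL had members beside hairpins that hardly moved. CHD2 is a chromodomain helicase that remodels nucleosomes at active genes. TRCN0000021336 had 1244, 54, 4, 1 and 0 tags (23.5-fold, 17.9 to 31.4) and TRCN0000021334 had 1331, 73, 6, 1 and 0 (18.6-fold, 14.7 to 23.8). TRCN0000021335 was intermediate, with 2211 and 259 tags (8.69-fold), so 3 of 5 CHD2 hairpins were at least 8-fold lower. In contrast TRCN0000021337 had 5554 and 3816 tags and TRCN0000021338 had 2986 and 2550, both within 2-fold. REL encodes c-Rel, a DNA-binding subunit of NF-kappaB. Its members were TRCN0000039987, with 1056, 42, 2, 1 and 1 tags (25.6-fold, 18.8 to 35.7), and TRCN0000010421, with 2364, 102, 16, 5 and 0 (23.6-fold, 19.4 to 29.1). The REL hairpins TRCN0000039984 and TRCN0000039985 were 2.75-fold and 2.58-fold lower, and the other 3 were within 2-fold. One of these, TRCN0000010420, held 26719, 33592, 37962, 45173 and 26659 tags, which kept the summed REL share at 0.478% at PD40 and 0.335% at PD60.

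Beside EZH2, the Polycomb genes EED, PHC1 and SCMH1 had 1 member each, in a list of 26 Polycomb genes with abundant hairpins. EED, the PRC2 subunit that binds trimethylated lysine 27, had TRCN0000021205, at 1374, 74, 0, 2 and 0 tags (18.9-fold). The other EED hairpins spread widely: TRCN0000021206 was 6.07-fold lower and TRCN0000021208 within 2-fold. TRCN0000021207 went from 1404 to 3165 tags, a ratio of 2.21, and TRCN0000021204 from 1891 to 9282, a ratio of 4.82. PHC1, a subunit of Polycomb complex 1 (PRC1), had TRCN0000156138, at 2302, 89, 4, 3 and 2 tags (26.3-fold). Another 3 PHC1 hairpins were 7.08-fold, 3.35-fold and 2.98-fold lower, whereas TRCN0000153821 went from 87434 to 291409 tags, the highest count of the PD45 column. SCMH1, a PRC1-associated protein, had TRCN0000021809, at 1092, 50, 0, 4 and 1 tags (22.2-fold). With the EZH2 pair, the list of Polycomb genes had 5 members among 80 abundant hairpins (6.25%, against 2.99% of all 1740). At that background share, 2.39 members would fall in a list of this size. Its median log2 ratio was -1.19, against -0.87 over all 1740.

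Genes of heterochromatin and nucleosome remodelling made up a further group. SUV39H1, which trimethylates lysine 9 of histone H3, had TRCN0000157285, at 1794, 92, 17, 2 and 5 tags (19.9-fold). CBX3, the heterochromatin protein HP1 gamma, had TRCN0000021917, at 1179, 59, 11, 1 and 0 tags (20.3-fold), while its other 4 hairpins were within 2-fold or, in 1 case, over 2-fold higher. LBR, the lamin B receptor of the inner nuclear membrane, had TRCN0000060461, at 1509, 82, 13, 2 and 1 tags (18.7-fold), with 4 of its 5 hairpins over 2-fold lower. The list for lysine 9 methylation and heterochromatin thus had 3 members of 43 (6.98%, against 2.99% of all 1740), while its median log2 ratio of -0.78 was slightly above the -0.87 of all 1740. MTA2, a subunit of the NuRD remodeller and deacetylase complex, had TRCN0000013377, at 1451, 26, 13, 10 and 0 tags (56.8-fold), and all 5 MTA2 hairpins were over 2-fold lower. ARID1A, a SWI/SNF subunit, had TRCN0000059088, at 1195, 46, 6, 0 and 0 tags (26.5-fold). ATRX, a remodeller that deposits histone H3.3 with DAXX, had TRCN0000013591, at 1214, 73, 3, 3 and 0 tags (16.9-fold), but ATRX TRCN0000013592 went from 6279 to 10819. The deacetylase SIRT6 had TRCN0000050477, at 1088, 45, 21, 6 and 0 tags (24.6-fold), and PRMT1, the main arginine methyltransferase, had TRCN0000035933, at 1069, 35, 4, 0 and 0 (31.1-fold). For each of these genes 4 of 5 hairpins were over 2-fold lower. The exceptions were SIRT6 TRCN0000050474, which went from 3055 to 4330 tags, and PRMT1 TRCN0000035930, which went from 4456 to 7651.

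Genes that act when chromosomes are copied and packed, put together here from separate lists, had 4 members. CHAF1A, the large subunit of the chromatin assembly factor CAF-1 that places histones behind the replication fork, had TRCN0000074273, at 1682, 26, 3, 5 and 0 tags (65.9-fold, 44.8 to 101). The other two CHAF1A hairpins that started under 1000 tags were 51.6-fold and 10.9-fold lower, and the remaining pair were within 2-fold. SMC2, the ATPase of condensin, had TRCN0000062539, at 1566, 38, 1, 6 and 2 tags (42.0-fold), and 4 of 5 SMC2 hairpins were over 2-fold lower. SMC1A, the ATPase of cohesin, had TRCN0000062554, at 1000, 31, 2, 3 and 0 tags (32.8-fold); SMC1A TRCN0000062557, with 828 tags, was 56.2-fold lower, and the other 3 were within 2-fold. TIMELESS, which stabilises stalled replication forks, had TRCN0000153760, at 1300, 46, 0, 0 and 16 tags (28.8-fold), with 2 other abundant hairpins 12.4-fold and 7.19-fold lower. The most abundant TIMELESS hairpin, TRCN0000157801, was within 2-fold, with 8002 and 6930 tags. The list of DNA replication genes had 1 member of 17 (median log2 ratio -1.61), and that of cohesin, condensin and CTCF had 2 of 31 (median -1.51), against 2.99% and a median of -0.87 over all 1740. At that share, 0.508 and 0.926 members would fall in lists of these sizes. The list of mitosis genes had 0 of 20 (median -0.46). The list of histone chaperones, which holds CHAF1A, had 1 of 48 (2.08%, median -0.78), below the background of 2.99%.

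Histone genes had 7 members, and those against HIST3H3 and H2AFX, unlike the rest, rose above their own PD45 level in a later column. HIST3H3, a histone H3 gene known from testis, had TRCN0000074259, at 3887, 201, 6189, 4530 and 515 tags. It was 19.7-fold lower at PD45 (17.1 to 22.8), and its 451, 22.9 and 730 CPM at PD40, PD45 and PD50 make it the sole member above its own starting level in any later column. HIST2H2BE, an H2B gene, had TRCN0000106723, at 1626, 38, 2, 1 and 0 tags (43.6-fold). The linker histone genes HIST1H1E and HIST1H1T had TRCN0000106673, at 1017, 41, 1, 0 and 0 tags (25.3-fold), and TRCN0000106795, at 2220, 94, 3, 4 and 1 (24.0-fold). The H2A variant gene H2AFJ had TRCN0000106747, at 1239, 61, 1, 2 and 0 tags (20.7-fold). TRCN0000106873, which the table assigns to both HIST2H3PS2 and HIST2H2BF, was the most abundant member, with 5733, 339, 101, 57 and 11 tags (17.2-fold). H2AFX, whose product is phosphorylated at DNA breaks, had TRCN0000073280, at 2383, 93, 37, 107 and 583 tags. This hairpin had its lowest count at PD50 and then higher counts in both later columns, and the other 3 H2AFX hairpins were within 2-fold at PD45. Core histone hairpins had 5 members of 186 (2.69%), which is close to the background of 2.99%, and linker histones had 2 of 29 (6.90%).

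Transcription factors and signalling genes were the targets of most of the remaining members, but no list held this class as a whole. The lists of AP-1, CREB and MYC factors and of the PRDM family each had 0 members among 32 abundant hairpins. Among regulators of the cell cycle, E2F1, a transcription factor that drives S phase genes, had TRCN0000039660, at 1579, 81, 4, 8 and 3 tags (19.9-fold). RBL1, the pocket protein p107 that restrains E2F factors, had TRCN0000040022, at 1336, 64, 3, 6 and 0 (21.3-fold), and RBL1 TRCN0000040020, with 1339 and 89 tags, was just short of the limit at 15.3-fold. FRAP1, the older name of the growth kinase MTOR, had TRCN0000038677, at 1396, 61, 13, 4 and 0 tags (23.3-fold), beside FRAP1 TRCN0000038675, which went from 4880 to 12475. SMAD4, the shared mediator of TGF-beta signals, had TRCN0000040032, at 2008, 61, 0, 4 and 2 tags (33.5-fold), and 6 of 8 SMAD4 hairpins were over 2-fold lower. IKBKE, an IKK-related kinase, had TRCN0000010027, at 1279, 51, 8, 5 and 1 tags (25.5-fold). The IKBKE hairpin TRCN0000010034 went the other way, with 36343, 81480, 141592, 333739 and 122172 tags. The remaining members of this kind targeted GATA1, GATA2, FOXA1, SOX6, VAX2 and CITED1, which regulate transcription, and the cytokine gene TNF; they were 16.7-fold to 29.7-fold lower.

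The deepest single loss was that of a hairpin whose gene gave no second one. VIM encodes vimentin, the intermediate filament protein of fibroblasts, and its TRCN0000029121 had 1210, 6, 1, 1 and 3 tags (205-fold, 94.1 to 561). The other 4 VIM hairpins, all abundant, had ratios of 0.856, 0.941, 1.67 and 2.54, so none of them declined by 2-fold. ARID3B, a DNA-binding protein with an ARID domain, had the next deepest, TRCN0000154990, with 1136, 14, 0, 2 and 2 tags (82.6-fold, 49.0 to 152). Its other hairpins were 3.48-fold and 2.00-fold lower or within 2-fold. TPM1, which encodes a tropomyosin of actin filaments, showed the opposite: its member TRCN0000062151 was moderate, with 1787, 100, 3, 8 and 7 tags (18.2-fold), but all 5 of its hairpins were abundant and all were at least 5.33-fold lower. DICER1, the ribonuclease that cuts hairpins into small RNAs and so acts in the silencing route that the screen uses, had TRCN0000051258, at 2087, 132, 6, 5 and 5 tags (16.1-fold). The other abundant DICER1 hairpins were 2.06-fold to 2.19-fold lower. The last members targeted the RNA polymerase subunit POLR2L (21.0-fold), the demethylase of alkylated bases ALKBH3 (25.4-fold), the nuclear matrix protein SAFB (18.8-fold) and the nuclease inhibitor DFFA (18.5-fold). Of the 5 POLR2L hairpins 3 were over 2-fold lower, but TRCN0000021899 went from 38441 to 50757 tags.

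Abundant hairpins that shared a gene with a member, but were not members themselves, were as a set close to those of other genes. Of the 46 genes, 45 had another hairpin with at least 1000 tags at PD40, and ALKBH3 had none. Members aside, these genes had 131 abundant hairpins. Of these, 62 (47.3%) were over 2-fold lower at PD45 and 9 over 2-fold higher, with a median log2 ratio of -0.90. The 1464 abundant hairpins of genes with no member had 664 (45.4%) over 2-fold lower and a median of -0.81. The 131 leave out, by the rule, any second member of a gene. This comparison therefore cannot show how far hairpins of 1 gene agree. For 32 of the 41 genes with 1 member, at least 1 other abundant hairpin was not over 2-fold lower. For 10 of the 46 genes every abundant hairpin, with 2 or more measured, was over 2-fold lower, among them SNAI1, ARID1A, DFFA, GATA2, HIST2H2BE, MTA2, HIST1H1E, DICER1 and TPM1. Across the library 45 of 446 genes with at least 2 abundant hairpins met that description, these 10 included. A member is over 2-fold lower by the rule, so genes with a member met part of the description in advance. The counts of 10 and 45 are therefore not on an equal footing.

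The gene lists differed in their share of members, against the background of 2.99%. The highest share among lists with at least 20 abundant hairpins was that of the NF-kappaB pathway, with 3 of 27 (11.1%), from the REL pair and IKBKE. Its median log2 ratio of -0.80 was nonetheless close to the -0.87 of all 1740. Remodellers of the ISWI, CHD, INO80 and SRCAP classes had 4 of 77 (5.19%). Lists with 1 or 2 members included the DNA damage genes (2 of 44, H2AFX and ATRX), the senescence effectors (2 of 45, E2F1 and RBL1), the deacetylases (1 of 58, SIRT6) and the histone chaperones (1 of 48, CHAF1A). With 1 each were also AKT, mTOR and S6 kinases (1 of 45), SWI/SNF (1 of 38), the histone kinases (1 of 36, IKBKE), the arginine methyltransferases (1 of 28) and the RNA editing and modification enzymes (1 of 16, DICER1). Several large lists had no member: the histone acetyltransferases and their subunits (0 of 91, median -0.47), the lysine 4 methylation genes (0 of 48, median -0.56), the demethylases (0 of 48, median -1.13), the PI3 kinase subunits (0 of 46, median -1.22), the DNA methylation genes (0 of 45, median -0.61) and the HMG proteins (0 of 40, median -0.68). The PI3 kinase and demethylase lists had medians below that of all abundant hairpins although they had no member. The lists overlap and their genes share no equal start, and 17 of the 52 hairpins were in no list. The acetyltransferase p300 (EP300) had 6 abundant hairpins and its paralog CREBBP had 1, and the deepest loss among these 7 was 4.19-fold. Below 1000 tags, 2 EP300 hairpins were 13.2-fold and 7.10-fold lower. The 4 such CREBBP hairpins, which started at 84 to 519 tags, were 85.5-fold, 36.5-fold, 11.01-fold and 1.71-fold lower. LMNB1, a control target whose loss hastens senescence, had 5 abundant hairpins with ratios of 0.137 to 1.61 and no member.

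Starting abundance moved with membership. Among abundant hairpins starting at 1000 to under 2000 tags, 41 of 703 (5.83%) were members, against 10 of 667 (1.499%) at 2000 to under 5000, 1 of 229 (0.437%) at 5000 to under 10000 and 0 of 141 above. The median ratio was 0.388, 0.607, 0.775 and 0.825 in these classes, lowest where hairpins started lowest. Members that started above 2000 tags included those against HIST2H3PS2 and HIST2H2BF, HIST3H3, GATA1, EZH2, H2AFX, REL, PHC1, HIST1H1T, DICER1 and SMAD4. EZH2 and REL thus each had 1 member from above 2000 tags and 1 from below, while both members of SNAI1 and of CHD2 were from the class with the higher background. By catalogue number, in blocks of 10000 numbers, the share was highest from 60000 to 69999, with 7 of 72 (9.72%): SMC2, SMC1A, 2 of SNAI1, ALKBH3, LBR and TPM1. That block also had a low median log2 ratio over all its abundant hairpins (-1.495), and 44.4% of them started under 2000 tags, against 45.8% in the block from 10000 to 19999, where 12 of 389 (3.08%) were members. The part of starting abundance and catalogue block in these losses was not tested.

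After PD45, 51 of the 52 members stayed below their own PD40 level in CPM. The rule did not use the later columns, but it used PD40, so this count is not independent of the selection. Other abundant hairpins fell too: their median was 283 CPM at PD40, then 65.9, 10.8 and 1.21 in the 3 later columns. The share of them below their own PD40 level is not given here. The median of the members was 4 tags at PD50, 3 at PD55 and 1 at PD60, against 559, 124 and 10 for the other abundant hairpins. At 0 tags were 5 of 52 members at PD50, 8 at PD55 and 25 at PD60 (48.1%). For the other abundant hairpins it was 0, 23 and 275 of 1688 (16.3%). The rule left members at a median of 61.5 tags at PD45, against 1575 for the others. These contrasts are thus not independent of the selection. Over all 3443 hairpins, 1519 (44.1%) were at 0 at PD60. Among 1446 non-members with 6 to 339 tags at PD45, 1010 (69.85%) were. A count of 0 allows up to 3 tags. By PD60, 42 of the 52 had at most 3 tags and 4 had at least 10: H2AFX with 583, HIST3H3 with 515, TIMELESS with 16 and the HIST2H3PS2 and HIST2H2BF hairpin with 11. At most 3 tags at PD60 were held by 34.7% of the other abundant hairpins and 61.8% of all 3443. At least 10 were held by 50.6% and 28.6%. Compared with their own PD45 level in CPM, 51 of 52 were lower at PD50 and 50 of 52 at PD60; HIST3H3 was higher at each of PD50, PD55 and PD60, and H2AFX at PD60. The comparison with PD45 also shares a column with the rule. The median of the other abundant hairpins fell as well, from 179 CPM at PD45 to 65.9 at PD50 and 1.21 at PD60.

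Changes between later columns could be read for few members. Of the 52, 11 had at least 10 tags at PD50, and their median log2 of CPM plus 1 at PD55 over PD50 was -1.01. By the ratio of plain CPM, 7 of these 11 were over 2-fold lower and 1, H2AFX, over 2-fold higher, where the background over all 1660 abundant hairpins with 10 tags was 83.1% lower and 2.17% higher. The other abundant hairpins had a median of -2.05. Of the 11 members, 10 held 10 to 101 tags at PD50, where the added 1 CPM shrinks a log ratio, so these medians are not on an equal footing. From PD55 to PD60, 5 members had at least 10 tags: 4 were over 2-fold lower and H2AFX was over 2-fold higher, where the background over 1412 hairpins was 83.1% lower and 4.67% higher. H2AFX was the sole member over 2-fold higher in both intervals, from counts of 37, 107 and 583.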

How the data were processed

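Genomic DNA of 50 samples, 10 plates at each of 5 population doublings, was sequenced across the integrated hairpins. The authors deposited raw counts of tags for each hairpin, per the file headers, in 5 columns named by population doubling. Per the submitters' processing notes, Bowtie 1.0.1 was among the tools. Its settings, and the way plates became 1 column, are not given in the sources at hand. Columns were treated as pooled values and grouped by the labels' population doubling.

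Counts were scaled to column totals (8270745 to 11505688 tags). Ratios carry exact 95% intervals conditional on the summed count; a ratio of log2 values used CPM plus 1. With 1 column per time no test was run and no p-value is given. Genes were counted over hairpins naming 1 gene; of 48 names among the members, 39 were current RefSeq symbols (GRCh38.p14) and 9 an older name of 1 gene. The rule, checked on simulated data of 3443 hairpins, called 200 of 200 hairpins lowered 32-fold, 198 of 200 lowered 64-fold and 0 of 200 lowered 8-fold. In these simulations no other hairpin was lowered and only counting error was added. They therefore give no rate of wrong calls for the real columns.

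The members, gene lists and rule for named genes were chosen with earlier results of these data known. The rule for named genes took every gene with 2 or more members, the most abundant and deepest members, those back above their start, those beside the limits, the controls and each list's members; remaining members were named to account for the set. Some results that the rule took are not reported here. Alternatives for scaling used TMM factors of edgeR 4.0.16 and size factors of DESeq2 1.42.0 in R 4.3.3. Other steps used Python 3.11.15, numpy 2.4.6, pandas 2.3.3 and scipy 1.17.1.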

Additional observations from a re-analysis of the deposited data

How the results depend on the processing

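The number of members depends on the limits and on scaling. The count of 52 was 8 with TMM factors, 13 with size factors by the median of ratios and 13 with the limit set relative to the median abundant hairpin (this last chosen after seeing the data). It was 182 at 8-fold, 11 at 32-fold, 151 from 500 tags and 11 from 2000 tags. The 5 genes with 2 or more members were 0 with TMM factors and 0 from 2000 tags. EZH2 was the 1 such gene with size factors, at 32-fold and relative to the median hairpin. There were 3 (EZH2, REL and SNAI1) without the 50 most abundant hairpins in the totals and 3 (the same genes) where the whole interval had to pass. There were 31 at 8-fold and 20 from 500 tags. Genes with 3 or more members, 0 in the main setting, were 5 at 8-fold (CHD2, CXXC1, EZH2, RET and TPM1) and 4 from 500 tags (E2F1, EZH2 and FRAP1 with 3 each among them).

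TMM and the size factors move the median log2 ratio of abundant hairpins from -0.87 to 0.28 and -0.02, and the share over 2-fold higher from 8.85% to 31.3% and 23.5%; the members' median was -4.38, -2.79 and -3.07. For 11 members the median log2 ratio of PD55 over PD50, -1.01, was -0.00034 with TMM factors and -0.18 with 10 CPM added. The other alternatives left their results within 1.5 times of the main value. No paired analysis was possible because the table has 1 pooled column for the 10 plates of a time, and for the same reason no plate could be left out.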

Other observations

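Non-members with as few tags at PD45, whatever their start, serve as a comparison chosen after the values were seen. Among 27 members with 44 to 83.75 tags at PD45, 16 (59.3%) were at 0 at PD60, and among 211 other hairpins in that range 150 (71.1%) were. At PD55 it was 3 (11.1%) and 67 (31.75%). At PD50 the order was the other way, with 4 members (14.8%) and 10 others (4.74%) at 0. Of 10 members with 10 to 101 tags at PD50, 7 (70.0%) were over 2-fold lower at PD55, against 331 of 345 (95.9%) other abundant hairpins in that range. The cause of these differences was not tested.

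The genes E2F1 and HIST1H1E, outside the 5 with 2 members, were chosen after their values were seen. E2F1 had 5 of 12 hairpins that met the 16-fold limit whatever their start and 9 of 12 over 2-fold lower, but TRCN0000010328 was within 2-fold, with 23248 and 13107 tags. HIST1H1E had 3 of 5 at the limit and all 5 over 2-fold lower, at a summed ratio of 0.218. Most of these hairpins started under 1000 tags, where 494 of 1703 hairpins (29.0%) met the limit in the whole library: 4 of the 5 for E2F1 and 2 of the 3 for HIST1H1E. The hairpin of FRAP1 TRCN0000038678, which began with 813 tags and so was outside the rule, had 148, 46, 167 and 8977 in the next columns, a late rise like that of the H2AFX member.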
